A study of Arabidopsis thaliana with 8 samples.

Results

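Salicylate-responsive defence was followed through 5 genes in developing leaves of Arabidopsis thaliana, out of 22746 probe sets that are no control on the ATH1 array. They are PCC1 (AT3G22231), AT5G19240, and the pathogenesis-related genes PR1 (AT2G14610), PR2 (AT3G57260, listed as BGL2 in the RefSeq gene table) and PR5 (AT1G75040). PCC1 and AT5G19240 were chosen by their signals, which were low in elevated CO2, and the PR genes to see whether they were low on the same arrays. The difference between the groups is therefore given for all 5 as a description, with no test. The platform's gene table names AT5G19240 for its probe set, 249918_at. It holds no entry for 256766_at (PCC1), 266385_at (PR1), 251625_at (PR2) and 259925_at (PR5), whose gene names are those given when the genes were chosen.

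Salicylate is a phenolic hormone made in leaves attacked by pathogens that feed on living cells. It is perceived through NPR1 and its relatives, which act with TGA transcription factors at the promoters of target genes, and PR1 is the usual marker of this response in Arabidopsis. The PR proteins are secreted or stored in the vacuole. PR1 is a CAP-domain protein with antimicrobial activity, PR2 a beta-1,3-glucanase that cuts a polymer of fungal and oomycete walls, and PR5 a thaumatin-like protein. PCC1, PATHOGEN AND CIRCADIAN CONTROLLED 1, is a small protein of the plasma membrane whose transcript responds to pathogens and follows the clock. AT5G19240 is annotated as a glycoprotein held at the cell surface by a lipid anchor. Salicylate itself was not measured here.

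Each of 8 samples was hybridised to 1 array, and all came from Col-0 plants grown on compost at 20 °C, 50% humidity and 10 h of light, with leaves of insertions 19 to 21 taken at 0 h. The elevated CO2 group has 4 arrays, assigned by treatment text that tells of enrichment or elevation. The label of replicate 1 puts it at 750 ppm and mentions 24 h in a cuvette before harvest, and that of replicate 4 says elevated without naming CO2. No CO2 level is recorded for replicates 2, 3 and 4. The not elevated group has 4 arrays whose labels mention no enrichment. Its replicate 1 carries a title code that no other array has and a letter where the labels of the other 3 say control, so the results below that rest on it are given with and without it. The growth description shared by all 8 labels says the atmosphere was normal, and the groups follow the separate treatment text. Because no label states that replicates are different plants, SDs, SEs and p-values reflect only how these samples varied, possibly for technical reasons.

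The 8 arrays resembled each other, with correlations across probe sets of 0.969 to 0.986 within groups and 0.967 to 0.982 between them. Each array is scaled to the same trimmed mean of 100 units, so a signal is relative to the rest of its array. Signals of different probe sets cannot be set against each other, and detection calls were not used here. Of the lists of leaf and other cell types, only 2 genes were named and tested. RCA, the activase of Rubisco in green leaf cells, read 3445 ± 223 units in elevated CO2 and 3057 ± 492 in the not elevated group (SD, n = 4 each). PYK10, a beta-glucosidase gene of roots, read 22.3 ± 10.8 and 23.3 ± 2.42 units. The 11 fixed markers of epidermis, trichomes, guard cells and vascular tissue had no named probe set, so these cells were not followed. In bulk leaves, fewer cells of a type and less RNA per cell cannot be told apart.

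PCC1 was lower on every elevated CO2 array than on any not elevated array. It read 975.6, 947.9, 1221.4 and 1235.9 units in elevated CO2 replicates 1 to 4, against 1928.6, 1832.7, 1935.9 and 1679.1 units in the not elevated replicates. The elevated arrays lay in a low pair and a higher pair, and all of the not elevated arrays lay well above both. The means were 1095 ± 155 units in elevated CO2 and 1844 ± 120 in the not elevated group (SD, n = 4 each), 40.6% lower in elevated CO2. On the log2(signal + 10) scale the difference was -0.75 ± 0.10 (SE).

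AT5G19240 was also lower on each elevated array than on each not elevated one. Its signals were 162.5, 143.6, 137.9 and 145.4 units in elevated CO2, against 226.8, 255.2, 241.9 and 176.4 units in the not elevated group. Here the elevated arrays were close together, and not elevated replicate 4 lay nearest to them. The means were 147 ± 10.6 units in elevated CO2 and 225 ± 34.5 in the not elevated group, a log2 difference of -0.57 ± 0.11 (SE), or 34.5% lower. Of the 5 genes, these were the 2 whose groups did not overlap with all 8 arrays, and 3.22% of the 15296 probe sets tested were separated in that direction. This separation is part of why the 2 genes were chosen, so nothing is read from the count.

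**Figure D1:**
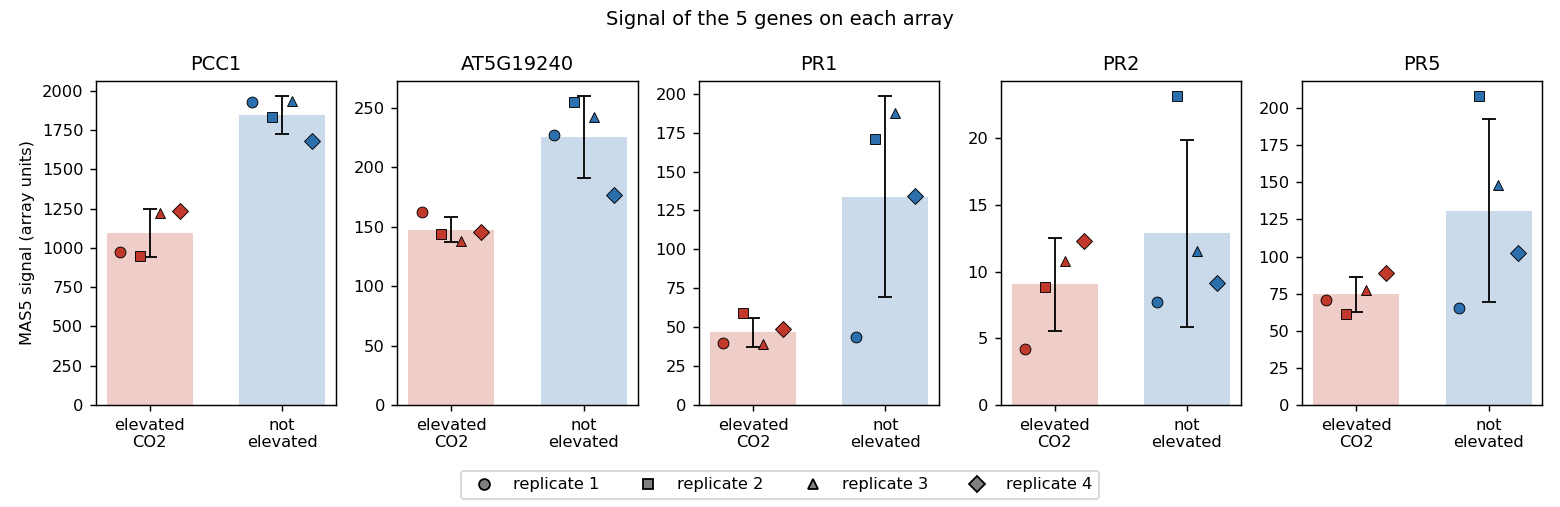
MAS5 signal in array units (vertical axis, from 0, scaled separately per panel) of PCC1, AT5G19240, PR1, PR2 and PR5, with 1 symbol per array, bars for group means and whiskers for the SD of 4 arrays. PCC1 and AT5G19240 are separated between elevated CO2 and not elevated arrays, while for PR1 and PR5 not elevated replicate 1 (circle) sits among the elevated arrays.

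PR1 had low signals on all elevated arrays and on 1 of the not elevated arrays. It read 39.9, 58.8, 38.9 and 49.0 units in elevated CO2, against 43.4, 170.7, 187.6 and 134.0 units in the not elevated group. Not elevated replicate 1 lay inside the elevated range, and the other 3 lay above all of it. The means were 46.6 ± 9.31 units in elevated CO2 and 134 ± 64.4 in the not elevated group, a log2 difference of -1.20 ± 0.31 (SE), or 65.2% lower. Without not elevated replicate 1, the mean of the remaining 3 was 164 ± 27.4 units and the log2 difference -1.62.

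PR5 followed the same arrays. Its signals were 70.9, 61.3, 77.2 and 89.1 units in elevated CO2, against 65.3, 207.9, 148.2 and 102.3 units in the not elevated group. Again not elevated replicate 1 lay within the elevated range and the other 3 above it, with replicate 4 only slightly higher than the highest elevated array. The means were 74.6 ± 11.7 units in elevated CO2 and 131 ± 61.5 in the not elevated group, a log2 difference of -0.64 ± 0.24 (SE). Without not elevated replicate 1 the not elevated mean was 153 ± 53.0 units and the log2 difference -0.90. Without not elevated replicate 2, which held the highest signal, it was -0.39.

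PR2 was dim throughout. It read 4.2, 8.8, 10.8 and 12.3 units in elevated CO2, against 7.7, 23.1, 11.5 and 9.1 units in the not elevated group. The groups overlapped over most of their range, and not elevated replicate 2 alone stood above the elevated arrays. With a mean of 10.9 units over the 8 arrays, PR2 was the 1 gene of the 5 under the filter of 20 units, so its difference was computed outside the fit across probe sets. The means were 9.04 ± 3.51 units in elevated CO2 and 12.9 ± 7.03 in the not elevated group, a log2 difference of -0.24 ± 0.25 (SE), smaller than its error. Without not elevated replicate 2 it was -0.05.

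Each of the 5 genes was thus lower on average in elevated CO2, but the arrays behind the averages differed. With all arrays, PR1, PR2 and PR5 overlapped between the groups. Without not elevated replicate 1, PR1 and PR5 no longer overlapped, PR2 still did, and 6.28% of tested probe sets were separated in that direction. PCC1 and AT5G19240 hardly depended on that array, with log2 differences of -0.73 and -0.56 without it. In not elevated replicate 1 PCC1 read 1928.6 units, within the range of the other 3 arrays of its group, while PR1 there was at the elevated level. The pattern of PR1 and PR5, with not elevated replicate 1 inside the elevated range and the other 3 above it, was found in 367 of the 15296 tested probe sets, or 2.4%. The same pattern with replicate 2, 3 or 4 as the array inside the range was found in 1.37%, 1.28% and 0.896%. In the opposite direction, with the other 3 below the range, the shares were 1.75%, 1.7%, 1.2% and 1.05% for replicates 1 to 4. The other title code of not elevated replicate 1 and its low PR1 and PR5 signals go together, and their relation was not tested.

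**Figure D2:**
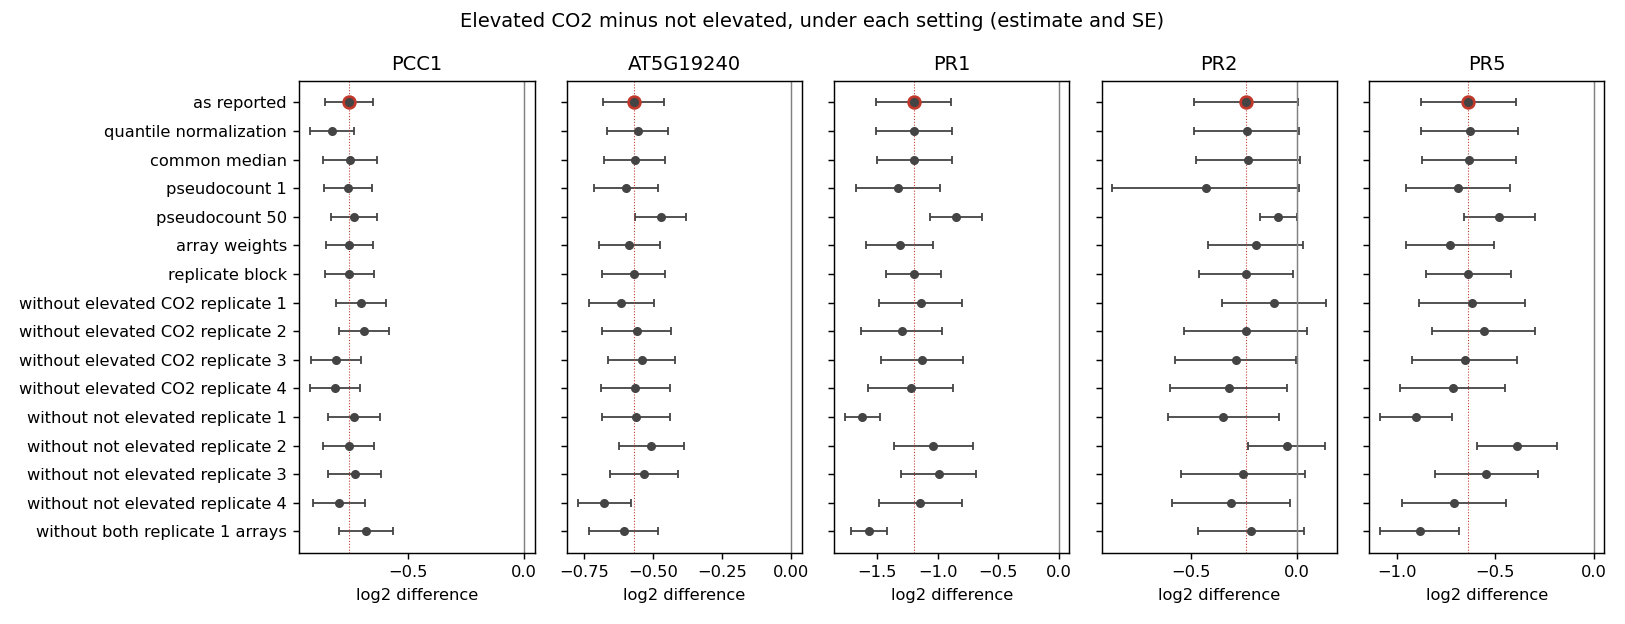
Difference between elevated CO2 and not elevated arrays on the log2(signal + pseudocount) scale (horizontal axis, own scale per panel) for each gene under 16 settings (rows), with points for estimates, whiskers for SEs and a red ring for the value as reported. The estimates lie below 0 under each setting shown, PCC1 between -0.83 and -0.68, and PR1 and PR5 are lowest without not elevated replicate 1.

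The genes differed in their spread among arrays of 1 group. For PCC1 and AT5G19240 a small spread was favoured by the choice of genes that separate the groups, so the values are a description. In the not elevated group the SD of log2(signal + 10) was 0.87 for PR1, 0.66 for PR5 and 0.40 for PR2, against 0.10 for PCC1 and 0.22 for AT5G19240. The median over all tested probe sets was 0.14, and 0.118% of them had a larger SD there than PR1 and 0.366% a larger one than PR5. In elevated CO2 the SDs were closer, 0.23 for PR1, 0.20 for PR5, 0.29 for PR2, 0.20 for PCC1 and 0.10 for AT5G19240, with a median of 0.16 over all tested. For PR1 the coefficient of variation of the signal was 19.9% in elevated CO2 and 48.1% in the not elevated group. Leaving out not elevated replicate 1, it was 16.7% for PR1 in the not elevated group, below that in elevated CO2. The SD of log2(signal + 10) was then 0.24 for PR1 and 0.48 for PR5, with a median of 0.12 over all tested on the same arrays. Much of the wide spread of PR1 thus rested on that array, though the rest was still above the median. For PR5 the coefficient of variation was 15.6% in elevated CO2 and 34.7% in the not elevated group without that array. PCC1 had 14.1% in elevated CO2 and 6.49% in the not elevated group with all arrays. The mean signal over the 8 arrays was 10.9 units for PR2, which is under the filter, and 1470 for PCC1. The spreads were not compared with those of equally bright probe sets. With 4 arrays a group these spreads are themselves uncertain, and no test was made of them.

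Whether the 5 genes moved together from array to array was examined after each group's mean had been subtracted, so that the difference between groups did not enter. PR2 and PR5 had a Pearson's r of 0.79 over the 8 arrays (two-sided exact permutation p = 0.0399, adjusted p = 0.399) and a Spearman's rho of 0.64 (exact p = 0.106, adjusted p = 0.660). PR1 and PR5 had r = 0.78 (exact permutation p = 0.128, adjusted p = 0.642) and rho = 0.57 (exact p = 0.240, adjusted p = 0.660). Adjusted over the 10 pairs, 0 passed by either measure, with 1 at an unadjusted p under 0.05, where the 576 orders of arrays within groups allow a p as small as 0.00174. Of the 10 values of r, 9 were above 0.

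The relation of PR1 and PR5 rested on few arrays. Without not elevated replicates 1 and 3, the arrays farthest from the median for PR1, r was 0.29, and without not elevated replicate 1 alone it was 0.27. For PR2 and PR5, r was 0.95 without the 2 farthest, not elevated replicate 2 and elevated CO2 replicate 1. PCC1 had no correlation with a PR gene that passed within groups, with r = -0.19 to PR1 (exact permutation p = 0.523, adjusted p = 0.788), 0.39 to PR2 (exact p = 0.337, adjusted p = 0.788) and 0.21 to PR5 (exact p = 0.502, adjusted p = 0.788). Without elevated CO2 replicates 1 and 2 these were -0.25, 0.0045 and -0.04. With not elevated replicate 1 left out they were -0.02, 0.55 and 0.59 (exact permutation adjusted p = 0.965, 0.625 and 0.521), and with quantile normalization 0.09, 0.73 and 0.62 (exact permutation adjusted p = 0.912, 0.197 and 0.197). The sizes of the correlations of PCC1 with PR2 and PR5 thus depended on single arrays and on the scaling. The rho values were -0.19, 0.43 and 0.45 (exact p = 0.587, 0.396 and 0.156, adjusted p = 0.734, 0.660 and 0.660).

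PCC1 and AT5G19240, although separated between the groups on the same arrays, had r = 0.12 within groups (exact permutation p = 0.720, adjusted p = 0.801) and rho = -0.07 (exact p = 0.892, adjusted p = 0.984). That r was 0.80 without elevated CO2 replicates 1 and 2 and -0.52 without not elevated replicate 4. AT5G19240 had r = 0.10, 0.26 and 0.42 to PR1, PR2 and PR5 (exact permutation p = 0.898, 0.630 and 0.566, adjusted p = 0.898, 0.788 and 0.788). Without not elevated replicates 2 and 4 they were 0.28, -0.62 and 0.27. The corresponding rho were 0.26, 0.02 and 0.48 (exact p = 0.587, 0.984 and 0.342, adjusted p = 0.734, 0.984 and 0.660). The tenth pair, PR1 and PR2, had r = 0.52 (exact permutation p = 0.321, adjusted p = 0.788), 0.54 without not elevated replicates 1 and 3, and rho = 0.38 (exact p = 0.384, adjusted p = 0.660).

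**Figure D3:**
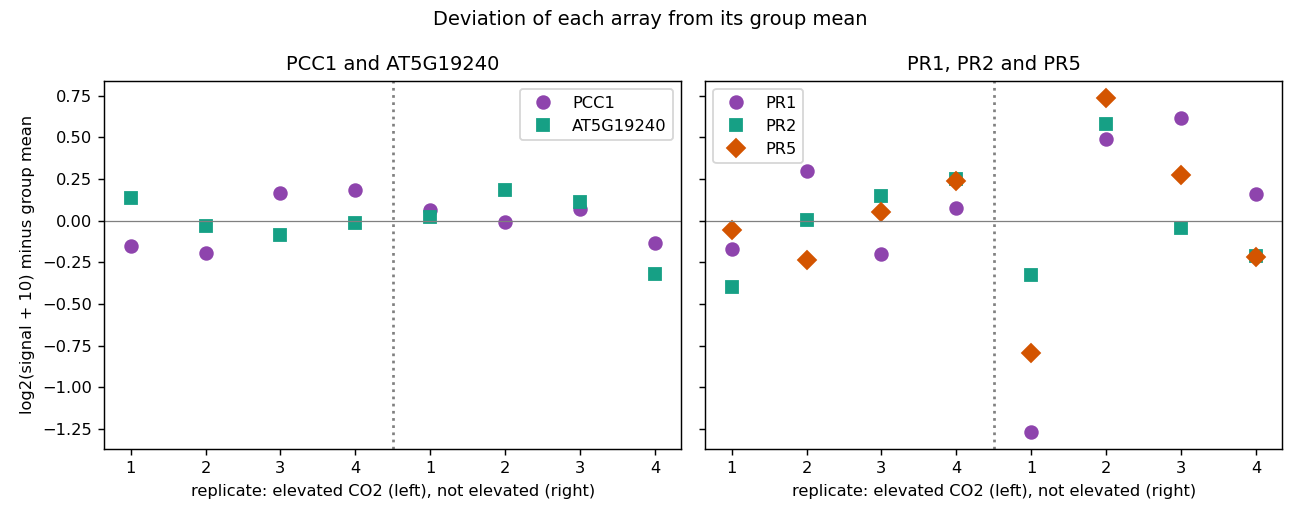
Deviation of each array from its group's mean of log2(signal + 10) (vertical axis) for PCC1 and AT5G19240 (left panel) and for PR1, PR2 and PR5 (right panel), with elevated CO2 replicates left of the dotted line and not elevated replicates right of it. The 3 PR genes are all below their group mean in not elevated replicate 1 and above it in replicate 2, while PCC1 and AT5G19240 stay within 0.4 of 0 on each array.

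Of 141 loci listed for the rest of the salicylate pathway, from synthesis to targets, 22 are named on the array by the tables used here and 10 were tested. None of the 10 passed an adjusted p of 0.05 in limma's fit, in which 48 of 15296 probe sets passed (0.314%), and 2 had an unadjusted p under 0.05, which 11.1% of all probe sets tested reached. By direction alone 4 were higher and 6 lower in elevated CO2, with a median log2 difference of -0.13, against 0.0013 over all probe sets tested. The 10 stand for a small part of the pathway. ICS1, EDS1, PAD4, NPR1 and WRKY70 are among the listed loci without a named probe set and were not analysed here.

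In synthesis and modification, AIM1, a peroxisomal beta-oxidation enzyme, read 230 ± 33.7 units in elevated CO2 and 222 ± 14.7 in the not elevated group (log2 difference 0.04). WES1, also called GH3.5, which joins amino acids to auxin and salicylate, read 40.0 ± 8.49 and 33.7 ± 3.57 units (0.18). Neither passed, with adjusted p-values from limma of 0.929 and 0.683. In perception and regulation, NPR2, a relative of the receptor NPR1, read 28.9 ± 3.71 units in elevated CO2 and 31.5 ± 7.26 in the not elevated group (-0.08, adjusted p = 0.886). WRKY22, a transcription factor of early immune signalling, read 29.3 ± 3.83 and 34.3 ± 3.05 units (-0.18, adjusted p = 0.649). The groups overlapped in all 4 of these genes.

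The 2 smallest p-values of the pathway belonged to LLP1 and SGT1A. LLP1 (AT5G03350), a legume lectin-like protein of systemic resistance, read 1348.4, 1405.8, 1057.3 and 1247.5 units in elevated CO2, against 1544.5, 1382.6, 1708.3 and 1571.5 units in the not elevated group. The groups overlapped through a single pair of arrays, elevated CO2 replicate 2 and not elevated replicate 2. Its log2 difference was -0.30 ± 0.10 (SE), with a limma adjusted p = 0.271. SGT1A, a cochaperone of intracellular immune receptors, read 173 ± 17.3 units in elevated CO2 and 211 ± 31.6 in the not elevated group (log2 difference -0.27, limma adjusted p = 0.399).

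Other targets were close to level or spread widely. GRX480, a glutaredoxin that binds TGA factors, read 34.3 ± 4.79 units in elevated CO2 and 29.3 ± 6.15 in the not elevated group (log2 difference 0.18, limma adjusted p = 0.694). SARD4, a reductase in the making of the resistance signal pipecolate, read 53.6 ± 12.9 and 77.0 ± 28.6 units (-0.41, adjusted p = 0.480). SARD4 was highest, at 114.0 units, in not elevated replicate 2, where PR2 and PR5 were highest too. Within the not elevated group it was lowest, at 47.2 units, in replicate 3, where PR1 was highest. The log2 difference of SARD4 was -0.22 without not elevated replicate 2 and -0.60 without not elevated replicate 3. Among relatives of the PR proteins, 2 of 8 named genes were tested, both of the thaumatin family of PR5. AT1G77700 read 19.4 ± 5.18 units in elevated CO2 and 25.8 ± 6.44 in the not elevated group (-0.28, adjusted p = 0.602), and AT2G28790 921 ± 113 and 911 ± 148 units (0.02, adjusted p = 0.969).

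**Figure D4:**
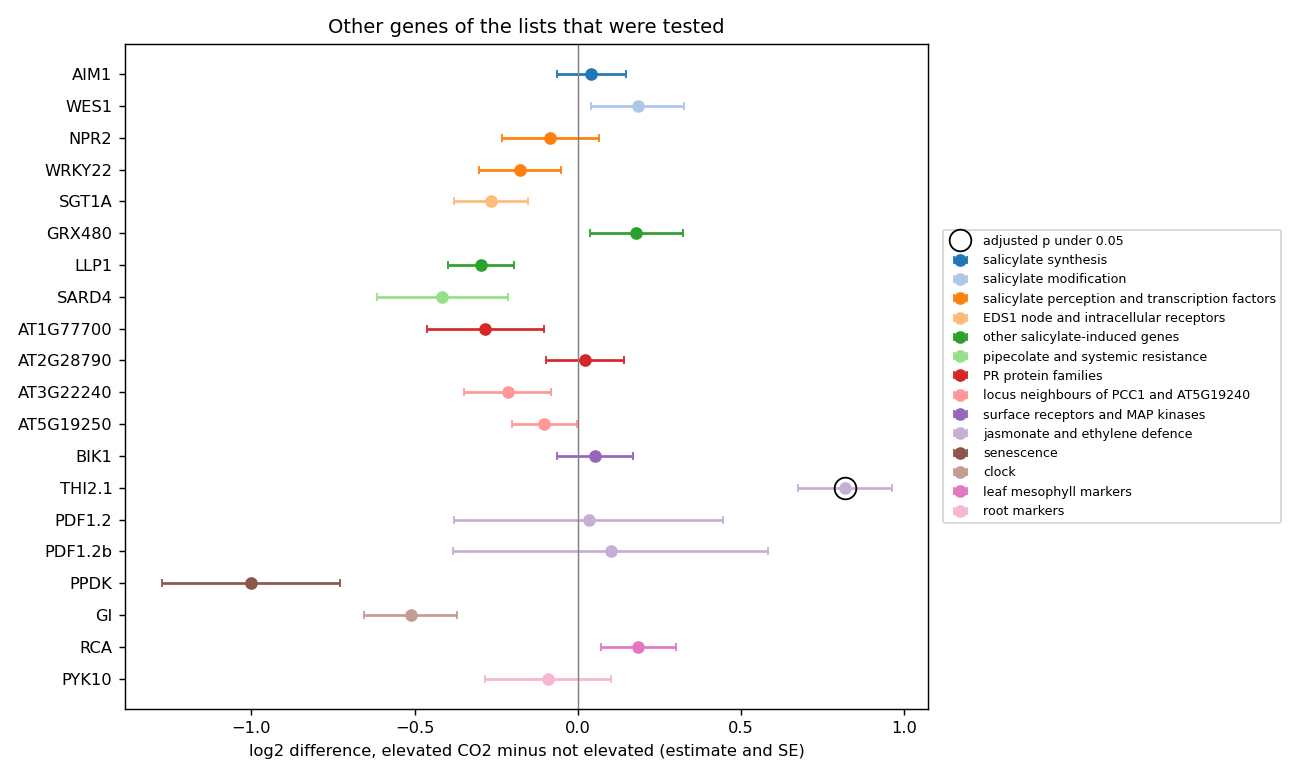
Log2 difference between elevated CO2 and not elevated arrays with its SE (horizontal axis) for the 20 tested genes of the lists (rows), coloured by list, with a ring where the limma adjusted p was under 0.05. The 10 salicylate pathway genes, AIM1 to AT2G28790, lie between -0.41 and 0.18 with no ring, and THI2.1 has the only ring.

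Genes near PCC1 and AT5G19240 on their chromosomes did not pass the test. AT5G19250, the next gene after AT5G19240 in the TAIR10.1 gene table, read 548.6, 631.6, 661.0 and 594.5 units in elevated CO2, against 724.4, 660.4, 700.1 and 542.6 units in the not elevated group (log2 difference -0.10, limma adjusted p = 0.770). The highest and the lowest of these signals were both in the not elevated group. AT3G22240, which has 6 genes between it and PCC1, read 2577 ± 517 units in elevated CO2 and 2962 ± 343 in the not elevated group (-0.22, adjusted p = 0.591).

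For comparison, the lists of other defence, senescence and the clock had 6 tested genes. Of 3 jasmonate and ethylene genes, THI2.1, a thionin induced by jasmonate, rose, with 91.8 ± 13.9 units in elevated CO2 and 48.0 ± 10.5 in the not elevated group (log2 difference 0.82, limma adjusted p = 0.0324). It lost the threshold when any array but not elevated replicate 1 was left out, with adjusted p-values from 0.0505 to 0.123. PDF1.2b, a defensin of the same response, read 251 ± 150 units in elevated CO2 and 216 ± 120 in the not elevated group (0.10, adjusted p = 0.965). BIK1, a kinase downstream of surface immune receptors, read 45.6 ± 4.50 and 43.6 ± 5.14 units (0.05, adjusted p = 0.913).

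The clock gene GI, the 1 of 13 clock loci tested, is given because PCC1 follows the clock. It read 25.3, 28.5, 44.3 and 33.5 units in elevated CO2, against 47.9, 56.7, 43.6 and 54.3 units in the not elevated group (log2 difference -0.51, limma adjusted p = 0.185). The groups overlapped only through elevated CO2 replicate 3, which was above not elevated replicate 3. Its part in the difference of PCC1 was not tested. PPDK, which serves nitrogen recycling in ageing leaves, was the only tested gene of the senescence list. It read 16.6, 21.0, 14.0 and 15.2 units in elevated CO2, against 17.0, 67.0, 69.5 and 38.7 units in the not elevated group (-1.002, adjusted p = 0.170). Like PR1 and PR5 it was at the elevated level in not elevated replicate 1. Without that array its adjusted p was 0.00674, in a limma fit where 132 probe sets passed, against 48 with all arrays.

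Genes with the most similar pattern were ranked by Pearson's r of log2(signal + 10) over the 8 arrays among 8430 tested genes, given as a description. The r after removing group means comes from the same arrays that picked the genes and is no separate test. For PCC1 the most similar were AT3G01590 (r = 0.97), AT3G61820 (0.97), AT1G03250 (0.95), AT1G72060 (0.95) and TSO1 (0.94). With the group means removed, AT3G01590 kept an r of 0.94 to PCC1, and the others 0.55 to 0.69. AT3G01590 read 70.7, 65.4, 80.7 and 86.1 units in elevated CO2, against 102.3, 95.8, 101.9 and 96.3 units in the not elevated group, so that its elevated arrays fell into the same low and higher pair as those of PCC1.

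For AT5G19240 the most similar were AT3G04780 (r = 0.98), AT1G72060 (0.94), AT1G03250 (0.93), AT1G03400 (0.93) and AT2G45730 (0.92), of which AT1G72060 and AT1G03250 also stood in the list of PCC1. AT2G45730 kept an r of 0.91 and AT3G04780 of 0.88 with the group means removed. The 8 genes named for PCC1 and AT5G19240 differed by -0.42 to -0.22 on the log2 scale, and their limma adjusted p-values were 0.137 to 0.308, so none of them passed the test.

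The genes most like the mean of PR1, PR2 and PR5 on the log2 scale were AT1G13990 (r = 0.98), AT5G37790 (0.97), AT3G20510 (0.97), AT5G37130 (0.97) and AT2G18690 (0.97). With the group means removed their r was 0.94 to 0.97, on the same arrays by which they were picked. AT1G13990 read 29.4, 34.3, 34.3 and 36.2 units in elevated CO2, against 29.2, 67.4, 66.1 and 43.5 units in the not elevated group. AT2G18690 read 7.9, 21.2, 15.8 and 27.3 units in elevated CO2, against 12.6, 65.2, 61.0 and 33.3 units in the not elevated group. In AT1G13990 not elevated replicate 1 was just under the elevated arrays, in AT2G18690 it lay among them, and in both genes not elevated replicates 2 and 3 were highest. Their log2 differences were -0.45 and -0.82, with limma adjusted p-values of 0.393 and 0.363. None of the 5 genes most like PCC1 was among the 5 most like the PR mean. Unrelated lists of 5 among 8430 genes would rarely share any, so nothing is read from this.

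**Figure D5:**
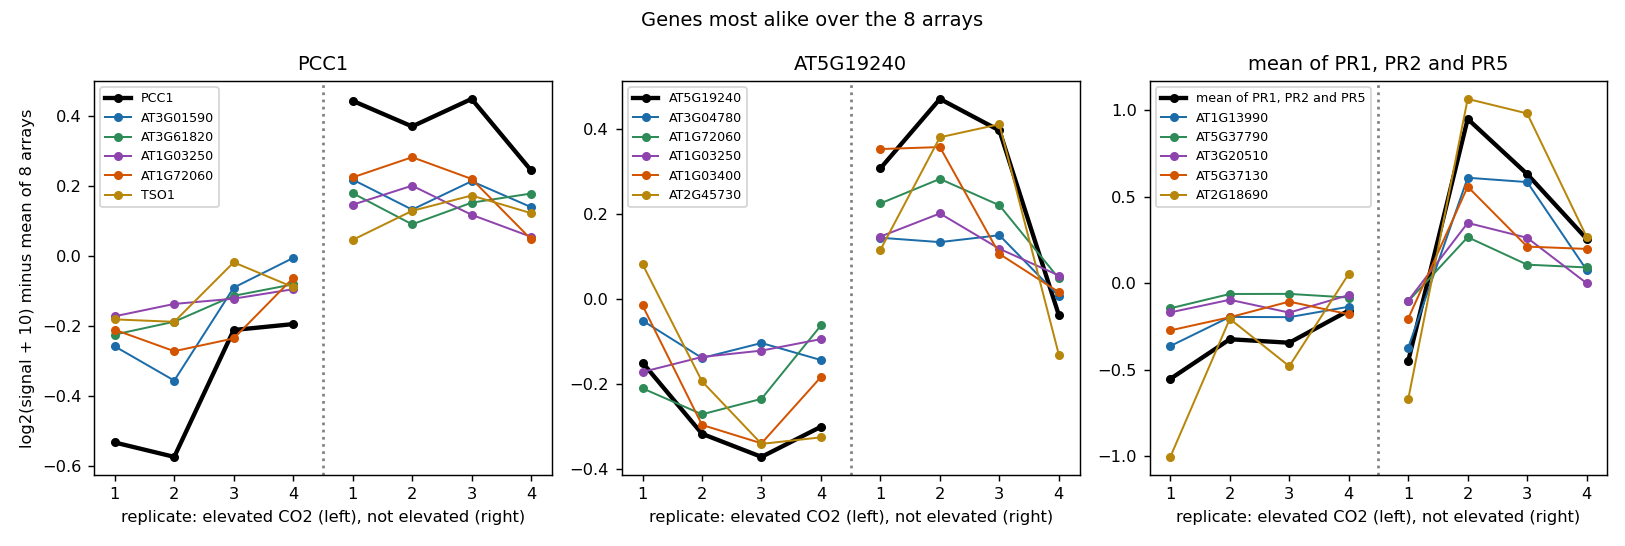
Value of log2(signal + 10) minus its mean over the 8 arrays (vertical axis, own scale per panel) for PCC1, AT5G19240 and the mean of PR1, PR2 and PR5 (black), each with the 5 genes most correlated with it (colours), where lines only join the values of 1 gene and replicates have no order. For PCC1 all 4 not elevated arrays are high, while for the PR mean not elevated replicate 1 is low and replicate 2 is highest.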

How the data were processed

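Biotin-labelled total RNA of 8 leaf samples was read on ATH1 arrays. The authors deposited 1 linear intensity per probe set and array, which comes from MAS5 according to the submitters' processing notes. The version of MAS5 and a genome build are not stated there. The trimmed mean of each array (2% at each end) was 100 units.

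The 5 genes and all lists were chosen with earlier results of these data known. After 64 control probe sets were left out, 15296 of 22746 had a mean of at least 20 units and were tested as log2(signal + 10) with limma 3.58.1 (lmFit, eBayes with a trend) in R 4.3.3, two-sided, with Benjamini-Hochberg adjustment at 0.05. The pseudocount of 10 makes the log2 difference of a dim gene too small. Gene names come from the platform's annotation, updated by gene number to TAIR10.1 of RefSeq, and 8730 probe sets have no entry there. A gene's brightest probe set was used. Errors are SDs of signals and SEs of log2 differences. Correlations within groups were tested by permuting arrays within groups exactly. The genes named are the 5, the 2 tested genes of each list with the smallest p and any past the threshold, and the 5 most similar per pattern. Genes singled out beyond this were chosen after their values were seen. On simulated arrays of 15296 probe sets limma found 92.6% of 2-fold and 63% of 1.5-fold changes. The simulated noise was independent, with the same spread in both groups and no odd array. These shares may therefore be too high for the real arrays. The replicate numbers were not used to pair the arrays, except as a block in an alternative setting.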

Additional observations from a re-analysis of the deposited data

Results flagged for a closer look

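Among 37 named genes, 74 groups of 4 arrays were examined with Dixon's test for a single array apart from the rest of its group. It found 2, and none of them belonged to the 5 defence genes. Chance gives 3.7 on average for genes picked without regard to their values. Many of these genes were picked by their values on the same arrays, so nothing is read from either count. For PYK10 this was elevated CO2 replicate 1 at 38.4 units, with the remaining elevated arrays between 16.3 and 18.0. For AT3G04780 it was not elevated replicate 4 at 202.9 units, with the remaining not elevated arrays between 222.5 and 225.1. AT3G04780 was picked for its likeness to AT5G19240, whose lowest not elevated signal was on that array too.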

How the results depend on the processing

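The 5 defence genes were lower in elevated CO2 under each of 15 other settings, and leaving out 1 array gave log2 differences of -0.82 to -0.69 for PCC1, -0.68 to -0.51 for AT5G19240, -1.62 to -0.99 for PR1, -0.35 to -0.05 for PR2 and -0.90 to -0.39 for PR5. PR1 was at -1.33 with a pseudocount of 1 and -0.85 with 50, and PR2 at -0.43 and -0.09. None of the salicylate pathway genes and none of the 10 correlations passed under any setting run. With arrays left out there are fewer orders of arrays within groups, so the smallest possible p is larger. A single correlation could not have passed the adjustment in those settings, and nothing is read from its absence there.

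The 48 probe sets past the threshold became 30 with quantile normalization, 28 with a pseudocount of 1, 1 without a filter, 9 without the trend, 132 with array weights and 144 without both replicate 1 arrays, and with 1 array left out they ran from 0 to 132. They were 28, 12, 77 and 8 without elevated CO2 replicates 1, 2, 3 and 4, and 132, 10, 0 and 7 without not elevated replicates 1, 2, 3 and 4. Where limma called 0, 1400 had an unadjusted p under 0.05. The causes were not tested. Across all tested probe sets, same-numbered arrays did not deviate together (r from -0.18 to -0.04). Pairing in single genes was not tested. With the replicate number as a block, 50 probe sets passed, and THI2.1 did not (adjusted p = 0.0576). THI2.1 also missed the threshold without a filter (0.159) and without the trend (0.0850). PPDK passed without both replicate 1 arrays (limma adjusted p = 0.00887), a setting that also leaves out the array where it was seen to be low, so nothing is read from it.

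Small differences changed sign. AT2G28790 was at -0.019 with quantile normalization, -0.062 with array weights and -0.13 without both replicate 1 arrays, where BIK1 was at -0.059 and PDF1.2b at -0.28. With 1 array left out AT2G28790 ran from -0.071 to 0.11, AIM1 from -0.018 to 0.14, NPR2 from -0.17 to 0.015, BIK1 from -0.0069 to 0.10 and PDF1.2b from -0.28 to 0.65. Within groups, r of PCC1 was 0.088 to PR1, 0.73 to PR2 and 0.62 to PR5 with quantile normalization. With 1 array left out r ran from -0.52 to 0.35 for PCC1 and AT5G19240, -0.11 to 0.47 for AT5G19240 and PR1, and -0.26 to 0.59 for AT5G19240 and PR2. The filter of 20 units and the number of arrays limit what PR2 can show.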
